A study of Rattus norvegicus with 6 samples.

Results

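Antioxidant defence was followed through 10 genes: Nqo1, Hmox1, Gclc, Gclm, Txnrd1, Srxn1, Slc7a11, Sod2, Cat and Gpx1. They were chosen by symbol for their roles and not by their values, though with earlier results of these data known. All 10 were among the 17321 counted genes, and all 10 were among the 12276 with enough reads to be tested. RNA sequencing had been done on islets of Sprague Dawley rat fetuses at gestational day 22. In the high glucose group (3 libraries) the fetuses lay in the left uterine horn, which received glucose at 4 mg/min for 48 h starting on gestational day 20. In the control group (3 libraries) they lay in the right, normoglycemic horn of the same dam, so that each dam gave a pair. Every library pooled the islets of 2 fetal pancreata, and all islets in both groups were cultured for 24 h in RPMI with 5 mM glucose before lysis, so the infusion had ended a day before RNA was taken.

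Cells make superoxide and hydrogen peroxide when they burn fuel, and a set of enzymes keeps these oxidants low. Superoxide dismutases turn superoxide into hydrogen peroxide, which catalase, glutathione peroxidases and peroxiredoxins then turn into water. Much of the rest is under the transcription factor NRF2 (gene Nfe2l2), which KEAP1 marks for destruction until oxidants or electrophiles modify KEAP1. NRF2 then pairs with small MAF proteins on antioxidant response elements and raises genes for glutathione synthesis, thioredoxin recycling, quinone reduction and haem breakdown. Rodent beta cells are known for low amounts of catalase and glutathione peroxidase.

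NRF2 acts through the antioxidant response element, so the RefSeq promoter windows (GRCr8 assembly, around the annotated start) were searched for it on both strands. Each window spans 300 bases, and sequence beyond it was not searched. Windows were found for 9 of the 10 genes, Hmox1 being the exception, with 10 windows in all since Txnrd1 has 2 starts. The core element TGACNNNGC was present in 3 of the 10 windows, against 12.1% of all 33469 windows. It read TGACTAAGC in Gclm, TGACAAAGC at a Txnrd1 start and TGACCCTGC in Sod2. The form TGANTCAGC, which overlaps the core only where N is C, was present in 1 of the 10 windows, that of Srxn1, against 1.11% of all windows. Srxn1 also held the shorter TGANTCA, with which TGANTCAGC begins, at 2 places, against 7.33% of windows with at least 1 match. A match describes the letters only. The window of Srxn1 is shown because it alone carries this form, with capitals marking TGANTCA and TGANTCAGC. Between libraries Srxn1 varied 7.17-fold, less than Nqo1 at 10.6-fold. The window of Nqo1, the gene with the lowest fitted fold change, is shown beside it. It has no capitals because none of the 3 motifs was found in these 300 bases, which says nothing about sequence farther away.
Srxn1, chr3:161064562-161064861, plus strand: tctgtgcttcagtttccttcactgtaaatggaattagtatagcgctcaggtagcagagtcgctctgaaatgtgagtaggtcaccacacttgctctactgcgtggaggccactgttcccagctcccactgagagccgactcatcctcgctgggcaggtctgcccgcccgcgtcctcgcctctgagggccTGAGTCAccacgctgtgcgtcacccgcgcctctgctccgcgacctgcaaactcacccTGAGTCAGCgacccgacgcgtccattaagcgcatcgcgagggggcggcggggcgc
Nqo1, chr19:52220218-52220517, minus strand: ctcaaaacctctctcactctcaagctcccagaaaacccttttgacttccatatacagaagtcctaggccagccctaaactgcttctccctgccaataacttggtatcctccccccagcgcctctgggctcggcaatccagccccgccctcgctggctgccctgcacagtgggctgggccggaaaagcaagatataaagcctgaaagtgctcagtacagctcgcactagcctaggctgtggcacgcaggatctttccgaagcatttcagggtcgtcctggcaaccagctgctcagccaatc

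The libraries held from 22643755 to 30229658 counts in high glucose and from 18077841 to 30993532 in control, and the 10 genes had 219 to 34144 counts each, so counting error was small beside the spread between libraries. In 6 of 6 libraries the deposited file name carries the horn letter opposite to that of the sample title. The groups here follow the treatment labels, and every direction below would turn round if the file names were right. Horn side and treatment also cannot be told apart. The defining islet markers were present: summed over 11 beta cell genes the level was 4996 to 18877 CPM (counts scaled to a common library size by the trimmed mean of M-values, TMM) in high glucose libraries and 11324 to 22975 CPM in controls, and no beta or alpha cell marker was at 0 in any library. The preparations also held other cells, since 10 mesenchyme genes summed to 25438 to 34523 CPM in high glucose libraries and 18280 to 42196 CPM in controls. In such bulk samples, fewer cells of a type and less RNA per cell cannot be told apart.

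High glucose against control within each dam was tested in a model of all genes with the dam as a block. None of the 10 antioxidant genes passed at an adjusted p below 0.05 (edgeR quasi-likelihood test, background 0.0163% of genes), and none passed in DESeq2 (background 0.863%) or limma voom. At an unadjusted p below 0.05 edgeR gave 2 of the 10, Nqo1 and Gpx1, both lower, against 4.82% of all genes in either direction and 3.15% lower. The fitted log2 fold change was below 0 for 9 of the 10, with Sod2 the exception, against 49.3% of all genes tested. The median log2 fold change was -0.26 against 0.00 over all genes tested. The dams differed in this: within pairs, the median of the 10 log2 differences was -0.63 for pair 1, 0.06 for pair 2 and -0.39 for pair 3. All 10 were lower in the high glucose library of pair 1, but 3 of 10 in pair 2 and 7 of 10 in pair 3. Of these 30 directions, 1 changed sign with library totals or median-ratio factors in place of TMM, that of Gclm in pair 2, where the difference was near 0. High and control groups overlapped for all 10 genes, where 3.31% of all genes had groups that did not.

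**Figure D1:**
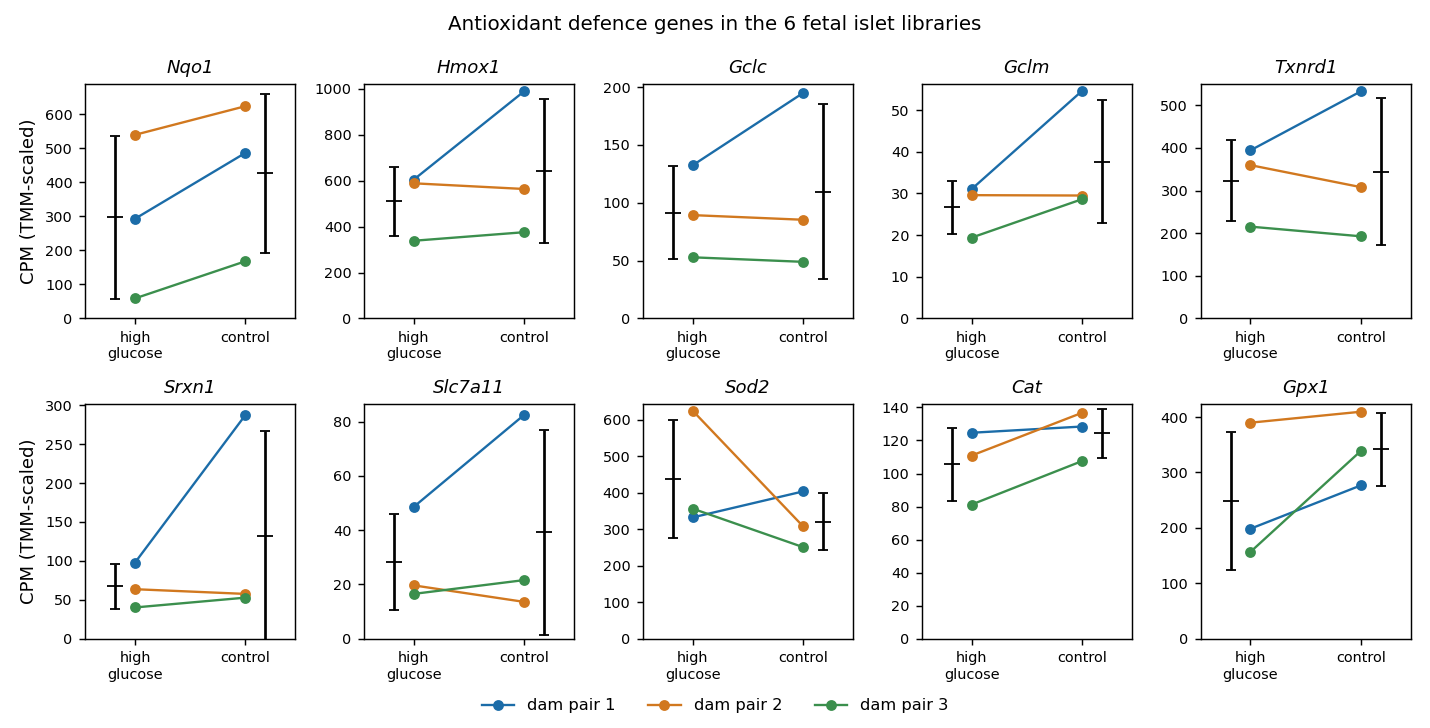
CPM of each of the 10 genes in the high glucose library (left) and the control library (right) of each dam pair, joined by a line, with the group mean and SD in black (n = 3 each; the lower SD bar of Srxn1 in controls runs below 0 and is cut off). The control library of pair 1 was the highest of the 6 for Hmox1, Gclc, Gclm, Txnrd1, Srxn1 and Slc7a11.

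Nqo1 encodes a reductase that takes quinones to hydroquinones in a single step and is a classical NRF2 target (rn6 chromosome 19, 38422210 to 38437103, plus strand). It measured 293, 540.1 and 59.0 CPM in the high glucose libraries of pairs 1, 2 and 3, against 487, 624 and 168 CPM in the controls of the same dams. The high glucose library was the lower of the pair in all 3 dams, yet the 2 groups overlapped widely because the dams themselves differed. The fitted log2 fold change was -0.81 (SE 0.256, 95% interval -1.39 to -0.24, edgeR adjusted p = 0.701). It was -0.86 without pair 1, -1.12 without pair 2, -0.47 without pair 3 and -0.52 without the dam block, and the smallest adjusted p for Nqo1 under any tool with all pairs was 0.157, in DESeq2.

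Glutathione synthesis is represented by Slc7a11, Gclc and Gclm. Slc7a11 is the light chain of the cystine/glutamate exchanger that brings in cystine (chromosome 2, 139453774 to 139528162, minus strand). It had 48.6, 19.6 and 16.5 CPM in high glucose libraries, against 82.5, 13.5 and 21.6 CPM in their controls. The libraries of pair 1 were the highest in both groups, and pair 2 went the other way from pairs 1 and 3. Gclc, the catalytic subunit of glutamate-cysteine ligase (chromosome 8, 85059051 to 85097470, plus strand), had 132, 89.3 and 52.8 CPM in high glucose libraries, against 195, 85.3 and 48.9 CPM in controls. Gclm, its modifier subunit (chromosome 2, 225827504 to 225847876, plus strand), had 31.0, 29.6 and 19.4 CPM in high glucose libraries, against 54.6, 29.5 and 28.6 CPM in controls. In pair 2 the log2 difference was 0.07 for Gclc and 0.00 for Gclm. The fitted log2 fold changes were -0.22 for Slc7a11 (interval -0.81 to 0.37), -0.13 for Gclc (-0.56 to 0.31) and -0.46 for Gclm (-0.95 to 0.03), each with an edgeR adjusted p of 0.9996. Without pair 1 the fit turned positive for Slc7a11 (0.06) and Gclc (0.09), and for Gclm it was -0.28. Without pair 2 it was -0.58 for Slc7a11, -0.22 for Gclc and -0.69 for Gclm, and without pair 3 -0.13, -0.25 and -0.41.

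Thioredoxin recycling is represented by Txnrd1 and Srxn1. Txnrd1, the cytosolic thioredoxin reductase, is a selenoprotein (chromosome 7, 26946124 to 27023889, minus strand). It had 394, 359.7 and 215 CPM in high glucose libraries, against 533, 308 and 193 CPM in controls, lower in pair 1 and higher in pairs 2 and 3. Its fitted log2 fold change was -0.02 (interval -0.47 to 0.44, edgeR adjusted p = 0.9996), and its sign turned with library totals in place of TMM (0.00) and without pair 1 (0.19). Srxn1, sulfiredoxin, rescues overoxidized peroxiredoxins (chromosome 3, 147608850 to 147614410, plus strand). It had 97.7, 63.6 and 40.1 CPM in high glucose libraries, against 287, 57.5 and 52.7 CPM in controls. The single control library of pair 1 was 5.00 times the median of the other 5 libraries. The fitted log2 fold change of Srxn1 was -0.60 with all pairs (interval -1.37 to 0.17, edgeR adjusted p = 0.9996) and it was -0.13 without pair 1, -0.98 without pair 2 and -0.98 without the dam block.

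Hmox1, haem oxygenase 1, opens the haem ring to release iron, carbon monoxide and biliverdin (chromosome 19, 14508634 to 14515456, plus strand). It is induced through NRF2 when haem removes the repressor BACH1, and macrophages that take up red cells express it. Hmox1 had 605, 588 and 338 CPM in high glucose libraries, against 989, 564 and 376 CPM in controls. The difference lay mostly in pair 1, and pair 2 was slightly higher in high glucose. The fitted log2 fold change was -0.27 (interval -0.75 to 0.22, edgeR adjusted p = 0.9996), and it was -0.05 without pair 1 and -0.43 without pair 2. Beside it, 11 macrophage genes summed to 966, 715 and 480.1 CPM in the high glucose libraries of pairs 1, 2 and 3, against 1246, 807 and 1047 CPM in controls, and 9 erythroid genes to 145, 602 and 84.7 CPM, against 1569, 1423 and 397 CPM. Both cell type sums were lower in all 3 pairs, whereas Hmox1 was lower in 2 of them. Their part in the Hmox1 values was not tested.

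Sod2, Cat and Gpx1 act on superoxide and peroxide directly. Sod2, the manganese superoxide dismutase of mitochondria (chromosome 1, 47914757 to 47921587, minus strand), had 332, 624 and 356 CPM in high glucose libraries, against 403, 307 and 251 CPM in controls. It was higher in pairs 2 and 3 and lower in pair 1, with a fitted log2 fold change of 0.42 (SE 0.256, interval -0.16 to 0.99, edgeR adjusted p = 0.9996). Without pair 1 it was 0.76 (edgeR adjusted p = 0.487), and without pair 2 it was 0.11. Cat, catalase of peroxisomes (chromosome 3, 93379872 to 93412058, minus strand), was the steadiest of the 10. It had 124.7, 111 and 81.2 CPM in high glucose libraries, against 128, 137 and 108 CPM in controls, lower in all 3 pairs but by only -0.04 on the log2 scale in pair 1. The fit for Cat was -0.25 (interval -0.64 to 0.14, edgeR adjusted p = 0.9996).

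Gpx1, the cytosolic glutathione peroxidase and a selenoprotein (chromosome 8, 117117403 to 117118529, plus strand), had 198, 389.9 and 157 CPM in high glucose libraries, against 277, 409.6 and 339 CPM in controls. It was lower in all 3 pairs, by -0.48, -0.07 and -1.11 on the log2 scale. The fitted log2 fold change was -0.55 (SE 0.227, interval -1.06 to -0.05, edgeR adjusted p = 0.945), and it was -0.80 without pair 2 and -0.27 without pair 3. Nqo1, Cat and Gpx1 were thus the 3 of 10 genes lower in high glucose in all 3 pairs, against 11.3% of all genes, and none of the 10 was higher in all 3, against 11.7%. The 10 genes share libraries and vary together, so these counts only describe them. The beta cell genes summed to 18877, 10865 and 4996 CPM in the high glucose libraries of pairs 1, 2 and 3, against 11324, 13590 and 22975 CPM in controls. Pair 3, where Nqo1 and Gpx1 differed most, was thus also the pair in which the beta cell sum was lowest beside its control. In pair 1 the beta cell sum was higher in high glucose, while Nqo1 and Gpx1 were lower. The part of the beta cell differences in the Nqo1 and Gpx1 values was not tested.

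**Figure D2:**
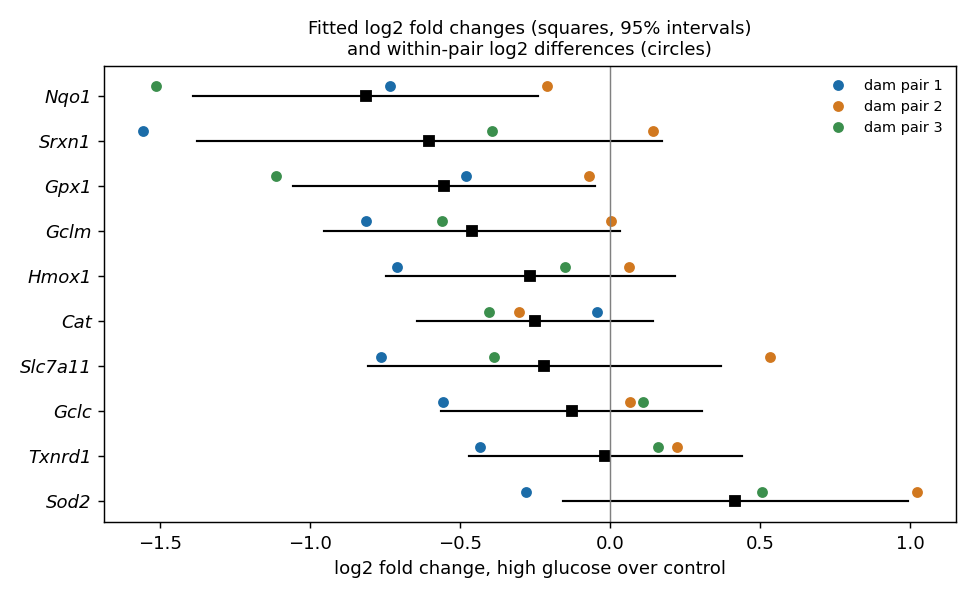
Fitted log2 fold changes of the 10 genes, high glucose over control (squares), with 95% intervals for each gene alone (lines), and the log2 differences within each dam pair (circles). The intervals of Nqo1 and Gpx1 lie below 0, that of Sod2 ends at 0.99, just short of a 2-fold rise, and the intervals of Nqo1, Srxn1 and Gpx1 extend past a 2-fold drop.

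The 95% intervals, which are for each gene alone and not adjusted over genes, reached beyond a 2-fold drop for 3 of the 10. The interval of Sod2 ended at 0.99, just short of a 2-fold rise, while Sod2 was 2.03-fold its control in pair 2, so a rise of that size cannot be set aside. On simulated counts this fit made more false calls than its threshold aims at, so the intervals and p-values here, those of the dam term included, may be too small. A p that misses the threshold does not show that the groups were alike.

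Levels also differed between dams. In the same model, a test of the dam term added after the values were seen passed for 6 of the 10 genes (edgeR quasi-likelihood, adjusted over all genes), where 22.8% of all genes passed. These were Nqo1 (edgeR adjusted p = 0.00434), Gclc (0.00532), Slc7a11 (0.00568), Txnrd1 (0.0215), Srxn1 (0.0262) and Hmox1 (0.0325). The NRF2 target Gclm did not pass (adjusted p = 0.102), nor did Gpx1 (0.0728), Cat (0.244) or Sod2 (0.339). Of 18 other NRF2 targets tested, 5 passed the dam test, and of 15 glutathione S-transferases 8. Averaged over both horns, Nqo1 measured 390.1, 582 and 114 CPM in dams 1, 2 and 3, a 5.12-fold range, and Srxn1 193, 60.5 and 46.4 CPM. Slc7a11 measured 65.5, 16.6 and 19.0 CPM, and Gclc 164, 87.3 and 50.9 CPM. The dams did not rank alike, since dam 2 was highest for Nqo1 and dam 1 for Srxn1, Slc7a11 and Gclc. Dam stands here for all that the libraries of a pair share, including litter and isolation, which cannot be told apart. With a dam left out, 4 genes passed without pair 1 (Nqo1, Gclc, Txnrd1 and Gpx1), 3 without pair 2 (Nqo1, Gclc and Slc7a11) and 3 without pair 3 (Gclc, Slc7a11 and Gpx1).

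**Figure D3:**
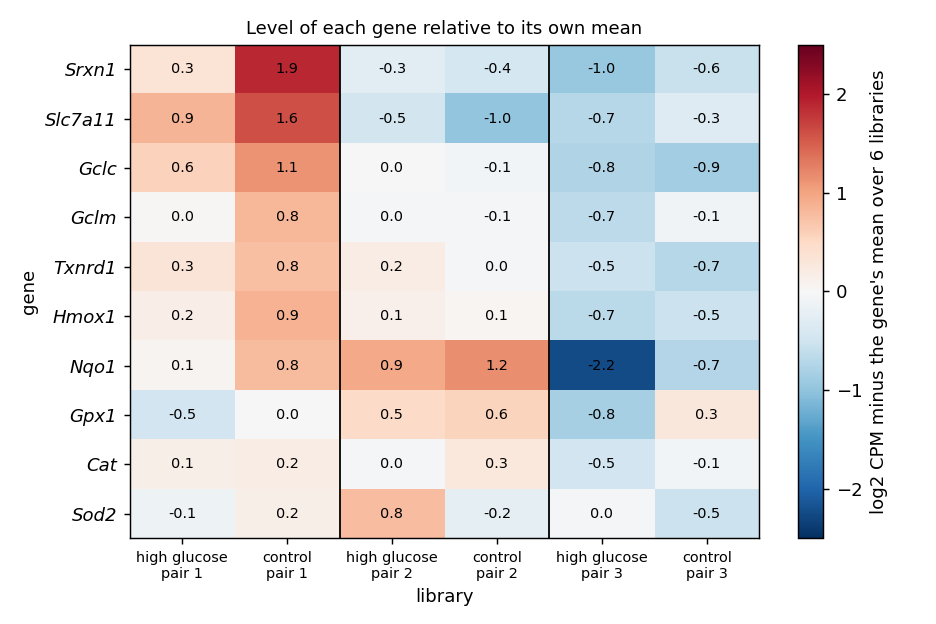
Log2 CPM of each gene minus its own mean over the 6 libraries, with the high glucose and control libraries of each dam side by side. The control library of pair 1 is high for Srxn1, Slc7a11, Gclc, Gclm, Txnrd1 and Hmox1 together, and the libraries of pair 3 are low for most genes.

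The control library of pair 1 was the highest of all 6 for 6 of the 10 genes, where it was the highest for 17.9% of all genes. Relative to the median of the other 5 libraries it was 5.00-fold for Srxn1, 4.20-fold for Slc7a11, 2.28-fold for Gclc, 1.85-fold for Gclm, 1.76-fold for Hmox1 and 1.73-fold for Txnrd1. It was 1.16-fold for Cat and 0.816-fold for Gpx1. The same library had the highest summed level of 9 granulocyte genes, at 189.9 CPM against 1.43 to 32.8 CPM in the other 5, of the macrophage genes and of the erythroid genes. It had the lowest of the mesenchyme genes, at 18280 CPM, and of the duct genes, at 3493 CPM. Their part in the antioxidant levels was not tested. Described over the 6 libraries, which share dams, log2 CPM of Gclc followed that of Txnrd1 (Pearson r = 0.98) and Hmox1 (r = 0.96), and Srxn1 followed Gclm (r = 0.95). Sod2 had an r between -0.04 and 0.51 with the other 9, and Gpx1 between -0.25 and 0.75.

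Per length of transcript the genes could be ranked against each other. In CPM per kilobase of exon, averaged over the 6 libraries, the order ran from Hmox1 (373) and Gpx1 (324) through Nqo1 (249), Sod2 (183) and Txnrd1 (91.5) to Cat (45.2), Srxn1 (34.7), Gclc (33.02), Gclm (21.6) and Slc7a11 (3.79). Neighbours were often not distinct. Hmox1 stood above Gpx1 in 3 of 6 libraries, Nqo1 above Sod2 in 4 of 6 and Srxn1 above Gclc in 2 of 6, whereas Sod2 above Txnrd1, Txnrd1 above Cat and Gclm above Slc7a11 held in all 6. The level of Gpx1 per kilobase was 273 ± 137 in high glucose and 376 ± 73.1 in control (SD, n = 3 each), and that of Cat 41.6 ± 8.74 in high glucose and 48.9 ± 5.93 in control.

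None of the pathway regulators passed the test. Nfe2l2, which encodes NRF2, measured 213 ± 25.0 CPM in high glucose and 227 ± 73.6 CPM in control (SD, n = 3 each), a log2 fold change of -0.05. Keap1 measured 65.1 ± 12.6 CPM in high glucose and 69.3 ± 9.59 CPM in control. Bach1, the repressor that competes with NRF2, measured 32.1 ± 22.5 CPM in high glucose and 32.5 ± 25.4 CPM in control. Of the 8 regulators tested, 2 passed the dam test, against 22.8% of all genes: Bach1 (edgeR adjusted p = 0.00224) and Mafg (0.0312). Sqstm1, the autophagy adaptor p62 that binds KEAP1, had a log2 fold change of -0.41, the small MAF gene Mafg 0.35 and Maff -0.30. Over the 8 NRF2 regulators tested, 0 passed for high glucose and the median log2 fold change was -0.03, with 0.08 without pair 1, -0.20 without pair 2 and -0.15 without pair 3.

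No antioxidant gene of the related lists passed either. Of 12 genes for glutathione synthesis and use, 0 passed in either direction, 11 fits were below 0 and the median log2 fold change was -0.20, or -0.08 without pair 3. Glrx, glutaredoxin, measured 24.1 ± 5.13 CPM in high glucose and 41.1 ± 16.8 CPM in control and was lower in all 3 pairs (log2 fold change -0.71, edgeR adjusted p = 0.571). Gpx2, the epithelial glutathione peroxidase, was the one fit above 0, at 460.2 ± 234 CPM in high glucose and 301 ± 165 CPM in control. It was higher in all 3 pairs (0.68, edgeR adjusted p = 0.671). Beside Gpx2, 10 duct genes summed to 5426, 6579 and 11533 CPM in the high glucose libraries, against 3493, 4853 and 6806 CPM in controls, and their part in it was not tested.

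Glutathione S-transferases, which join glutathione to electrophiles, had 15 tested genes, all with fits below 0 and 0 passing, at a median log2 fold change of -0.31, or -0.19 without pair 3. Gsta1 had a log2 fold change of -0.73, Gstt2 -0.62 and Mgst3 -0.47. Several transferases are close copies of each other, so their separate counts are uncertain. Among 16 thioredoxin, peroxiredoxin and sestrin genes 0 passed and the median was -0.18, with -0.12 without pair 1, -0.29 without pair 2 and -0.01 without pair 3. Sesn2 had a log2 fold change of -0.29, Prdx6 -0.24 and Sesn3 0.35. Of the other dismutase genes, cytosolic Sod1 measured 235 ± 116 CPM in high glucose and 271 ± 60.1 CPM in control (log2 fold change -0.29), its copper chaperone Ccs had -0.11 and extracellular Sod3 0.01. All 8 NADPH supply genes had fits below 0, with a median of -0.15 and 0 passing. Their direction rested on pair 3, as the median was 0.08 without it, -0.22 without pair 1 and -0.30 without pair 2. Pgd of the pentose phosphate pathway had -0.21, Tkt -0.20 and Taldo1 -0.17. Over all genes tested, 49.3% of fits were below 0.

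Haem and iron genes stand beside Hmox1. Of 9 tested, 0 passed and the median log2 fold change was -0.24, with -0.11 without pair 1 and -0.61 without pair 2. Slc40a1, the iron exporter ferroportin, measured 13.6 ± 5.16 CPM in high glucose and 27.8 ± 17.3 CPM in control and was lower in all 3 pairs (log2 fold change -0.91, edgeR adjusted p = 0.471). The biliverdin reductase genes Blvrb and Blvra had log2 fold changes of -0.61 and -0.43. Of 18 other NRF2 targets 0 passed, with a median of -0.16, which was -0.09 without pair 1, -0.31 without pair 2 and -0.01 without pair 3. Ephx1 (-0.45), Akr1b8 (-0.30) and the ferritin light chain gene Ftl1 (-0.39) had the smallest p. Of 3 metallothionein genes 0 passed, and Mt1 had -0.21 and Mt2A 0.17.

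Slc7a11 is also a target of ATF4, the factor of amino acid shortage and the unfolded protein response. Atf4 itself measured 514 ± 153 CPM in high glucose and 515 ± 42.6 CPM in control. Over 12 ATF4 targets 0 passed and the median log2 fold change was -0.31. Trib3 had -0.91 (edgeR adjusted p = 0.476, lower in all 3 pairs), Psat1 -0.41 and Asns -0.36. Peroxisome genes, which share the organelle of Cat, had a median of -0.03 over 11 genes, with 0 passing, Pex11a at 0.45 and Pex16 at -0.24. Mitochondrial genes had a median of -0.05 over 9, with 0 passing, and the uncoupling protein gene Ucp2 had -0.25 and Nrf1 0.11. Ppargc1a, at 1.16 ± 1.17 CPM in high glucose and 1.65 ± 0.548 CPM in control, had -0.87 (interval -2.72 to 0.98). That value came mostly from pair 2, as the log2 differences of Ppargc1a were 0.23, -3.50 and -0.08 in pairs 1, 2 and 3. The peroxisome median was -0.07 without pair 1, -0.07 without pair 2 and 0.04 without pair 3, and the mitochondrial median -0.13, -0.02 and 0.04.

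NADPH oxidase genes make superoxide instead of removing it, mainly in phagocytes. Their median log2 fold change was the lowest of the related lists, -0.61 over 9 genes with 0 passing (smallest edgeR adjusted p = 0.231), and 5 of 9 were lower in all 3 pairs, against 11.3% of all genes. Cybb, the catalytic subunit of the phagocyte oxidase, measured 8.67 ± 8.05 CPM in high glucose and 21.4 ± 20.2 CPM in control (-1.24). Rac2 had -0.89 and Ncf4 -0.80. The macrophage sums given beside Hmox1 were lower in the high glucose libraries of the same 3 pairs, and 6 of 11 macrophage genes were lower in all 3. The granulocyte genes summed to 2.61, 5.42 and 1.43 CPM in the high glucose libraries of pairs 1, 2 and 3, against 189.9, 6.43 and 32.8 CPM in controls. Of the 5 tested, 1 passed as lower, against 0.0163% of all genes. The median log2 fold change of the granulocyte genes was -3.94, while Ltf was at 0 in all libraries. Their part in the oxidase values was not tested.

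**Figure D4:**
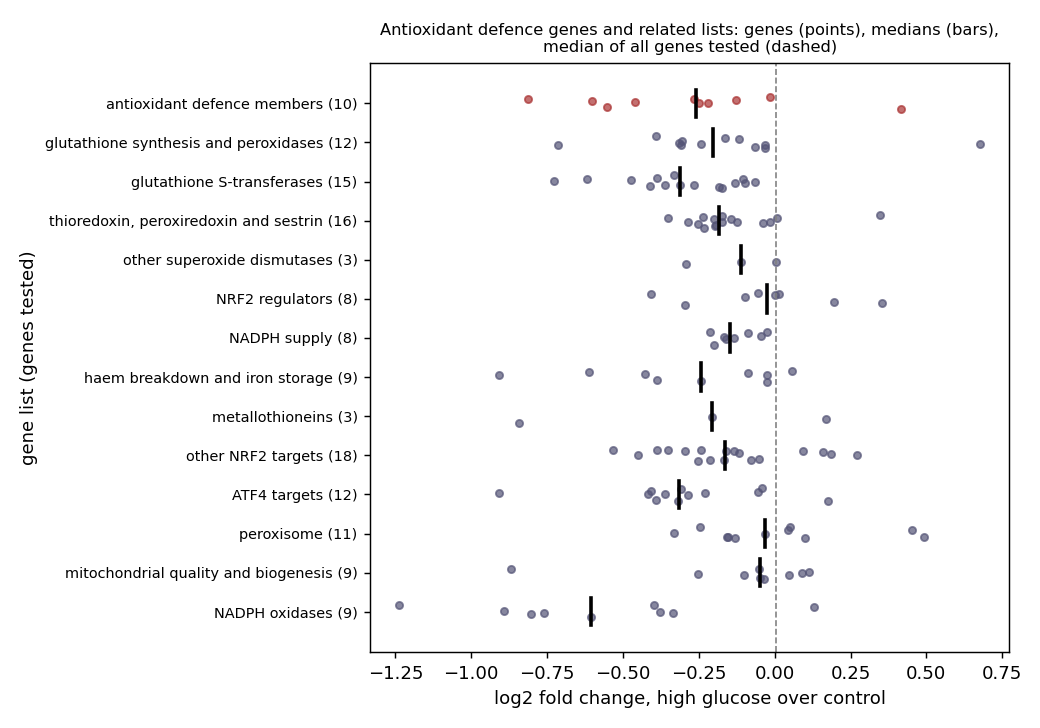
Fitted log2 fold change of every tested gene (points), high glucose over control, in the 10 antioxidant genes (red) and 13 related lists (grey), with each list's median (bar) and the median of all genes tested (dashed). Medians run from -0.61 for NADPH oxidases to -0.03 for NRF2 regulators, and no point passed the test.

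Across the 6 libraries, the 3 genes most like Nqo1 among 8811 genes with at least 10 CPM were Pir (Pearson r = 0.99), Coro7 and Hsd17b11 (both 0.98). Pir measured 27.4, 32.9 and 11.9 CPM in the high glucose libraries of pairs 1, 2 and 3, against 35.2, 37.7 and 22.4 CPM in controls. The genes most like Hmox1 were Arhgap10 (r = 0.99), Trib2 and Cnksr3 (both 0.98), and those most like Slc7a11 were Sgms2 (r = 0.99), Kctd9 and Usp15 (both 0.98). Sgms2 had 13.9, 4.10 and 4.02 CPM in high glucose libraries, against 41.8, 2.85 and 5.66 CPM in controls. With 6 libraries from 3 dams and this many genes compared, such values only describe a shared profile.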

How the data were processed

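Per the labels' protocols, RNA of cultured fetal rat islets was made into stranded mRNA libraries. Each deposited file gives, for 1 library, unnormalized gene counts from featureCounts 1.5.1, per the file headers (paired reads, strand setting 2, mapping quality of at least 10, rn6 refGene annotation). Per the submitters' processing notes, STAR 2.5 and edgeR 3.12.1 were used, and mm10 is named beside rn6. The quality minimum drops read pairs that map to several places, and no exon of the 10 genes overlapped an annotated exon of another gene on either strand.

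Genes kept by filterByExpr held 99.95% of counts and entered edgeR 4.0.16 under R 4.3.3 (TMM scaling, a robust quasi-likelihood fit blocked by dam, Benjamini-Hochberg adjusted p below 0.05, high glucose over control). SE is the log2 fold change over the square root of F. CPM uses TMM-scaled library sizes, and within-pair log2 differences a prior count of 2. DESeq2 1.42.0 and limma 3.58.1 served as alternatives. Tested on simulated data, the fit made more false calls than the threshold aims at. Pairs come from the series design and the shared stem of the titles. Deviations from group means correlated at 0.474, 0.621 and 0.413 over genes within dams. Replicates differed by more than counting error, and come from different dams. The 10 genes, the lists and the tests were chosen with earlier results of these data known. Named are all 10 genes, up to 3 per related list with the smallest p at 1 CPM or more, 4 regulators and, for 3 genes, the 3 with the highest r. One gene that this rule names is not reported here.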

Additional observations from a re-analysis of the deposited data

How the results depend on the processing

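No antioxidant gene was called under any of the 12 alternatives, and library totals were an alternative chosen after seeing the data, as was the dam test. Over all genes, the 2 calls became 4 with upper-quartile factors, 18 with no filter, 5 when genes averaging under 50 counts were dropped, 106 with DESeq2, 1 with limma voom, 1 without acinar, erythroid and hormone genes, 0 with no replicate block (192 genes at an unadjusted p below 0.05) and 18 to 55 without 1 pair. The median log2 fold change of the 10 genes lay between -0.50 and -0.09 without 1 pair and was -0.40 with no replicate block. Leaving out 1 pair gave -0.25 to 0.085 for Gclc, -0.14 to 0.19 for Txnrd1 and -0.58 to 0.064 for Slc7a11, each positive without pair 1, and Txnrd1 turned to 0.0044 with library totals. With the dam test, calls over all genes numbered 216 to 3878 without 1 pair, against 2795, and members called 3 to 4, against 6. The cause was not tested. The design limits the result more than depth, as the 10 genes had at least 219 counts per library.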

Other observations

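Ratios between 2 genes of the same library do not depend on library scaling, and were looked at after the values were seen. Of the 45 ratios among the 10 genes, 22 moved in the same direction in all 3 pairs, so a single such ratio is common here. With 3 pairs an exact sign-flip permutation test cannot go below p = 0.25. Per kilobase of exon, the ratio of Sod2, which makes hydrogen peroxide, to Gpx1, which removes it, was 0.737, 0.705 and 1.002 in the high glucose libraries of pairs 1, 2 and 3, against 0.642, 0.331 and 0.326 in controls. Sod2 was higher relative to 8 of the other 9 genes in all 3 pairs, Cat being the exception. These ratios all share Sod2, the only gene of the 10 fitted higher, so they are not separate observations. The ratio of the catalytic subunit Gclc to the modifier Gclm was 2.08, 1.47 and 1.33 in high glucose libraries, against 1.74, 1.41 and 0.835 in controls. Hmox1 over Txnrd1 was the steadiest ratio, at 3.62, 3.86 and 3.70 in high glucose libraries, against 4.38, 4.31 and 4.59 in controls. Groups did not overlap for 4 of the 45 ratios, this one included. The steadiest ratio was picked from the 45 after the values were seen. The share over ratios of other genes was not computed, so this count only describes the 45.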
